A study of Mus musculus with 28 samples.

Results

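The comparison set 6 libraries of tau-treated primary microglia from APOE3S/S mice (labelled Christchurch) against 6 libraries of tau-treated primary microglia from APOE3 mice (labelled WT), 12 of the 28 libraries in the series. They were chosen by genotype, treatment and library title, and no measured value was used. APOE3S/S stands for mice homozygous for the Christchurch form of APOE3, R136S in the title of the series. Library titles follow 2 naming series, called here the SAN title series and the second title series, and each holds 3 tau libraries of either genotype, numbered 4, 5 and 6 in the titles. The labels do not say what the naming series stand for, nor the form, dose or duration of the tau treatment, the age or sex of the mice, or whether libraries of a group came from separate cultures or animals. The p-values therefore measure the spread between these libraries, which may be technical. Beside them stand 10 untreated libraries (label Control; 6 APOE3 and 4 Christchurch, over both naming series) and 6 amyloid-treated libraries (3 and 3, SAN title series). The design asks how the Christchurch allele changes the response of microglia to tau, and the title of the series names the cGAS-STING-interferon axis.

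Microglia are the resident macrophages of the brain. The sensor cGAS, encoded by Mb21d1, detects DNA in the cytosol and makes a second messenger that activates STING, encoded by Tmem173. STING signalling leads through IRF transcription factors to type I interferon, whose receptor turns on interferon-stimulated genes such as Isg15, Ifit1 and Irf7 through STAT factors. APOE is the main lipid carrier of the brain, and the Christchurch substitution is known for weak binding to heparan sulfate. When a cell senses little sterol, the factor SREBP2 turns on the enzymes of cholesterol synthesis.

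The 12 libraries held 15784727 to 27214689 counts and 18223 to 20020 detected genes, and mitochondrial transcripts took 0.934 to 1.63% of counts. In the SAN title series that share did not overlap between the genotypes, with 1.28 to 1.63% in APOE3 and 0.934 to 1.19% in Christchurch libraries, and its part in the SAN results was not tested. In the second it was 1.49 to 1.63% and 1.51 to 1.59%. Summed over 10 microglia markers, levels lay between 6550 and 8223 CPM, a gene's counts scaled to the total of its library. Summed neuron markers stayed at 2.91 to 13.6 CPM. Of 16 granulocyte and lymphocyte markers 8, among them Ly6g, Mpo and Trbc2, were at 0. Those 16 summed to 15.8 to 23.9 CPM in the SAN and 2.49 to 6.03 CPM in the second title series. Oligodendrocyte markers summed to 234 to 301 CPM, although 9 of the 15 averaged under 1 CPM. Other lists were high: border macrophage and monocyte markers summed to 4846 to 5695 CPM (SAN) and 8761 to 9917 CPM (second). Fibroblast and vascular markers summed to 1175 to 1920 CPM (SAN) and 2676 to 3917 CPM (second). Of these 15 markers 8 averaged under 1 CPM, among them Cldn5 and Vtn, which were at 0. Fn1 belongs to this list and to the border macrophage list. Astrocyte markers summed to 73.0 to 88.1 CPM in APOE3 and 93.0 to 100 CPM in Christchurch libraries of the SAN title series, and to 42.8 to 51.9 and 51.5 to 52.3 CPM in the second. Which cells these sums came from, and the part of such cells in the results, was not tested. On the first principal component, with 67.2% of the variance, the naming series separated from each other, and on the second, with 5.89%, Christchurch SAN library 5 stood at 25.8 against 5.05 or less in the 11 other libraries. X and Y genes were left out because sex-linked genes differed between groups. Xist, made from the inactive X chromosome of female cells, was at 0 to 0.19 CPM in the 3 Christchurch libraries of the second title series and at 425 to 530 CPM in the APOE3 libraries beside them. Among the SAN libraries it was at 122 to 302 CPM in Christchurch and 122 to 154 CPM in APOE3 libraries, and 4 Y-linked genes were detected in both genotypes. The part of sex in the second title series was not tested.

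The number of genes called between the genotypes with tau depended on the fit. Of 13207 genes tested with the naming series as a covariate, edgeR's quasi-likelihood test called 1 (0.00757%) at a Benjamini-Hochberg adjusted p under 0.05, and that gene, Kcnn4, was lower in Christchurch microglia. DESeq2 called 11 and limma-voom 1 of the same genes, and edgeR with no low-count filter called 155, of which 154 are among the 13207. At an unadjusted p under 0.05, 298 genes (2.26%) were higher and 344 (2.60%) lower. Kcnn4 (chromosome 7, 24370263 to 24386690, GRCm38) encodes a calcium-activated potassium channel of macrophages and microglia. In the SAN title series it stood at 10.5, 10.4 and 10.3 CPM in APOE3 and at 5.11, 5.73 and 5.00 CPM in Christchurch libraries. In the second title series the values were 8.24, 8.44 and 8.29 CPM against 3.25, 4.32 and 5.95 CPM. All 6 Christchurch libraries lay below all 6 APOE3 libraries. The log2 fold change was −0.93 ± 0.13 (standard error; edgeR adjusted p = 0.0221), with −0.98 ± 0.14 among SAN libraries and −0.89 ± 0.21 among those of the second title series. The call was lost, at an adjusted p of 0.0586 to 0.111, without any 1 of 8 libraries: APOE3 SAN 4, 5 or 6, APOE3 second 6, Christchurch SAN 4, 5 or 6, or Christchurch second 5. Without tau, Kcnn4 stood at 4.21 to 12.1 CPM in 6 APOE3 and 3.68 to 7.40 CPM in 4 Christchurch libraries, a log2 difference of −0.43 ± 0.19 with overlapping groups. That Kcnn4 difference was −0.03 ± 0.28 in the SAN and −0.84 ± 0.26 in the second title series. With amyloid, Kcnn4 had 119, 144 and 161 raw counts in APOE3 and 72, 89 and 193 in Christchurch libraries, with overlap.

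**Figure D1:**
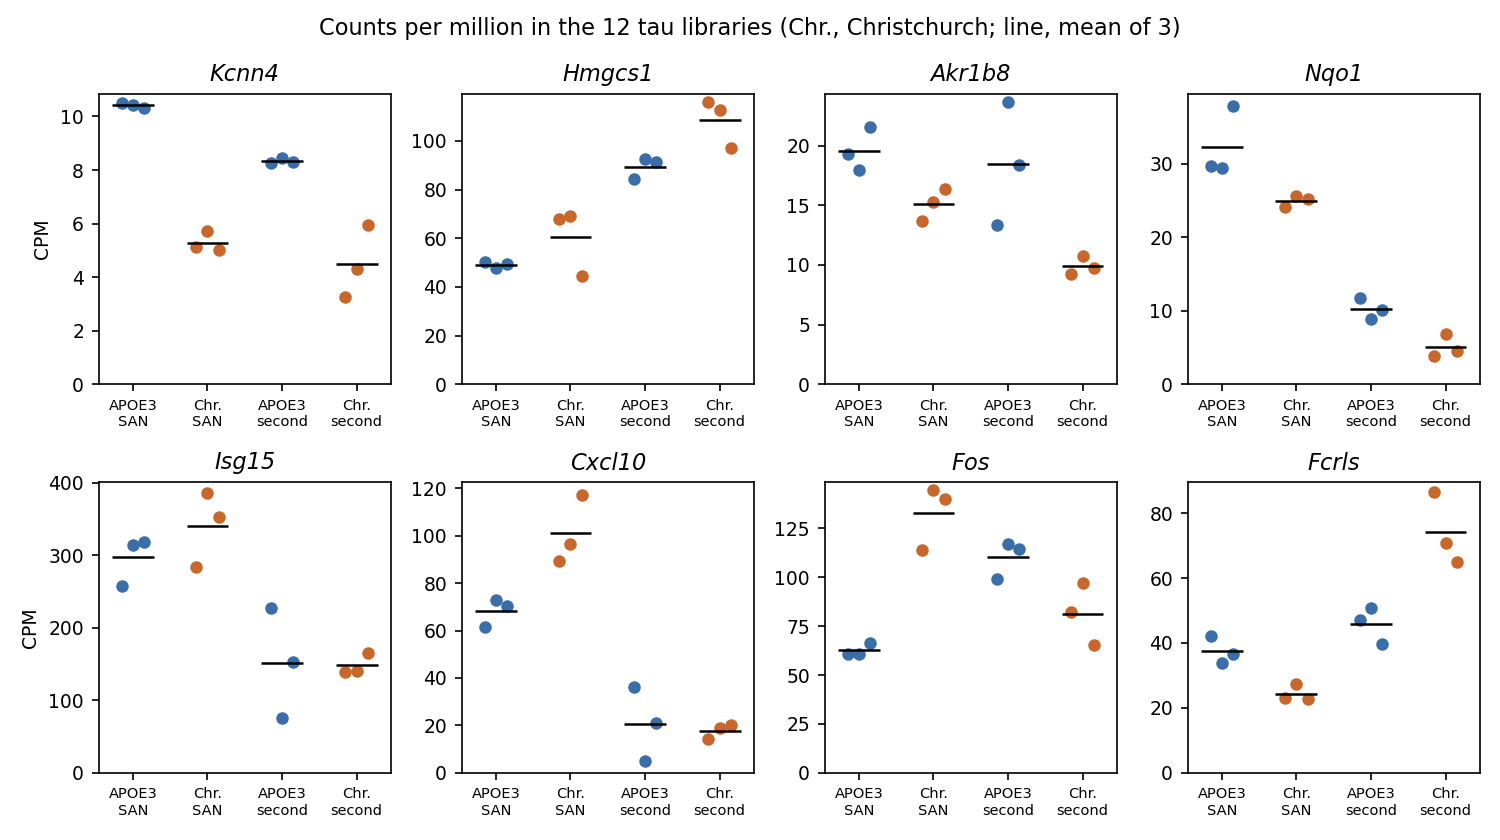
CPM (linear axis from 0) of 8 genes in each of the 12 tau libraries, by genotype and title series, with the mean of 3 libraries as a line. Kcnn4 is lower in all 6 Christchurch libraries, Isg15 overlaps between genotypes in both series, and Fos and Fcrls differ between genotypes in opposite directions in the 2 series.

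Kcnn4 lies 4.67 Mb from Apoe, the gene that differs between the strains. Map4k1 (chromosome 7, 28982050 to 29003279), a kinase that restrains antigen-receptor signalling, lies 9.29 Mb away and had a log2 fold change of −0.77 ± 0.17 (unadjusted p = 0.00028, adjusted p = 0.472). In the SAN title series its levels were 13.5, 16.0 and 13.7 CPM in APOE3 and 6.91, 7.38 and 6.08 CPM in Christchurch libraries, and it was called there (−1.08 ± 0.14, edgeR adjusted p = 0.0139). In the second title series it was at 1.77 to 3.53 CPM in both genotypes, with overlap. Dmpk, the myotonic dystrophy protein kinase gene, was named after its values were seen, because it lies 0.61 Mb from Apoe on the other side (chromosome 7, 19083849 to 19093821). It was at 4.85, 4.74 and 5.35 CPM in APOE3 and 8.18, 8.80 and 8.23 CPM in Christchurch libraries of the second title series, and at 0.824 to 1.22 against 1.37 to 1.62 CPM in the SAN series. Both series had every Christchurch library above every APOE3 library (pooled 0.68 ± 0.13, adjusted p = 0.321), and without tau the Dmpk difference was 0.85 ± 0.17. Within 10 Mb of Apoe, 12 of 210 tested genes (5.71%) had an unadjusted p under 0.05. On the rest of chromosome 7 it was 47 of 860 (5.47%), and elsewhere 583 of 12137 (4.80%). Such a share cannot show whether a few single genes differ there. Kcnn4, the only gene edgeR called, lies in this stretch. Kcnn4, Map4k1 and Dmpk, all within it, were among the 11 genes that DESeq2 called over both series. Whether DNA around Apoe differs between the strains was not tested. The Apoe transcript itself was at 7.54 to 15.0 CPM in APOE3 and 8.10 to 19.4 CPM in Christchurch libraries (0.10 ± 0.14, adjusted p = 0.997). The 3′ tags do not show the allele, and whether the mouse gene's counts hold the APOE3 transcripts was not tested.

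The interferon-stimulated genes, the readout named by the study, showed no called difference between the genotypes with tau. Of 54 listed genes none was called, by edgeR with or without the low-count filter, DESeq2 or limma-voom, and none reached an unadjusted p under 0.05, 44 had a positive and 10 a negative sign, and single genes ran from −0.15 to 0.14 in log2 fold change. The median was 0.05 (0.09 in the SAN and 0.01 in the second title series), beside 0.00 over all genes tested. Isg15, a ubiquitin-like modifier, was at 258, 314 and 318 CPM in APOE3 and 284, 385 and 352 CPM in Christchurch libraries of the SAN title series. In the second title series it was at 227, 75.1 and 153 CPM against 139, 140 and 165 CPM. The groups overlapped in both series, and the widest spread was among the APOE3 libraries of the second, where library 5 was the lowest of the 12. The Isg15 difference was 0.07 ± 0.19, that of Ifit1, which binds viral RNA, 0.03 ± 0.17, and that of Irf7, the factor that amplifies interferon production, 0.12 ± 0.14 (edgeR adjusted p = 0.997 each). Cxcl10, a chemokine that draws T cells, was at 61.5, 73.0 and 70.5 CPM in APOE3 and 89.4, 96.6 and 117 CPM in Christchurch libraries of the SAN title series, without overlap and not called (0.57 ± 0.12, adjusted p = 0.154). In the second series it was at 36.3, 4.91 and 20.8 CPM against 14.1, 18.9 and 20.4 CPM. Without APOE3 second library 5 the list median was −0.04, and without APOE3 second library 4 it was 0.15, so that the sign of this small difference rested on single libraries.

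The core of the interferon-stimulated response element, written GAAA, any 2 bases, GAAA, and searched on both strands, stood in 24 of 41 RefSeq windows of interferon-stimulated genes (58.5%), against 3.99% of all symbols, and none of these genes was called by genotype with tau. Stretches of 80 bases from 2 of them are printed 5′ to 3′ on the gene's strand, with the element in capitals on either strand, to show the letters of genes whose values stand above.
Isg15 (chr4:156200846-156200925, - strand): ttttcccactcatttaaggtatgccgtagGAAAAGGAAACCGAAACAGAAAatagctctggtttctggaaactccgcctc
Ifit1 (chr19:34640759-34640838, + strand): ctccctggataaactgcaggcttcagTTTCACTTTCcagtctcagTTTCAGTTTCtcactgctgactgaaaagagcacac
Overlapping copies of the element are printed as 1 run of capitals.

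Upstream of these genes the values overlapped too. Mb21d1 was at 18.1 to 37.7 CPM in APOE3 and 21.7 to 33.6 CPM in Christchurch libraries (−0.02 ± 0.09), and Tmem173 at 57.6 to 82.0 and 62.6 to 73.2 CPM (−0.05 ± 0.07). Tmem173 was lower in all 3 Christchurch libraries of the SAN title series (70.6, 62.6 and 65.1 CPM against 74.9, 82.0 and 75.1 CPM) and higher in all 3 of the second (69.7, 68.5 and 73.2 against 67.8, 57.6 and 66.8 CPM). That difference between the series was not called (adjusted p = 0.361). Of 23 tested genes of the cGAS-STING list none was called, 15 were positive and 8 negative, and the median was 0.03. The only one with an unadjusted p under 0.05 was Prkdc, the catalytic subunit of DNA-dependent protein kinase (−0.24 ± 0.11). Ifnb1, the interferon beta gene, stood at 0 to 0.824 CPM in APOE3 and 0.0478 to 1.5 CPM in Christchurch libraries, which is too few counts for a comparison. Interferon receptors with IRF and STAT factors had no called gene among 23 and a median of 0.03.

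The genotype effect with tau was next set against the one without treatment. No gene of 14142 tested was called for the difference between the genotype effects with and without tau (0%; DESeq2 and limma-voom also called 0), and 179 (1.27%) were higher and 305 (2.16%) lower at an unadjusted p under 0.05. All 54 interferon-stimulated genes had a negative sign there, 27 with an unadjusted p under 0.05, with a median of −0.70. Without tau the list had a median genotype difference of 0.75, 54 of 54 positive. Isg15 was at 19.2 to 54.7 CPM in 6 untreated APOE3 libraries and at 27.6, 246, 26.5 and 107 CPM in the 4 untreated Christchurch libraries. Of those 4, SAN library 3 held Ifit1 at 312 CPM and Irf7 at 1224 CPM, where the 3 others had 23.1 to 65.4 and 87.0 to 406 CPM. Without that library the list median of the difference was −0.06, and without SAN library 2, the other untreated Christchurch library of that series, it was −1.02. The number of the list at an unadjusted p under 0.05 ran from 0 to 52 over the left-out libraries. In the second title series, untreated Christchurch and APOE3 microglia differed by a median of 0.01 over the list. Named by rule among the 3 smallest p-values in either direction were Ifi214 (−2.01 ± 0.54), an interferon-inducible gene, Vnn3 (−0.89 ± 0.25), a pantetheinase, and Pold2 (−0.50 ± 0.15), a DNA polymerase subunit. On the other side stood Dtnb (0.60 ± 0.18), Ndrg1 (0.65 ± 0.20) and Grwd1 (0.52 ± 0.17). None of the 6 was called.

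**Figure D2:**
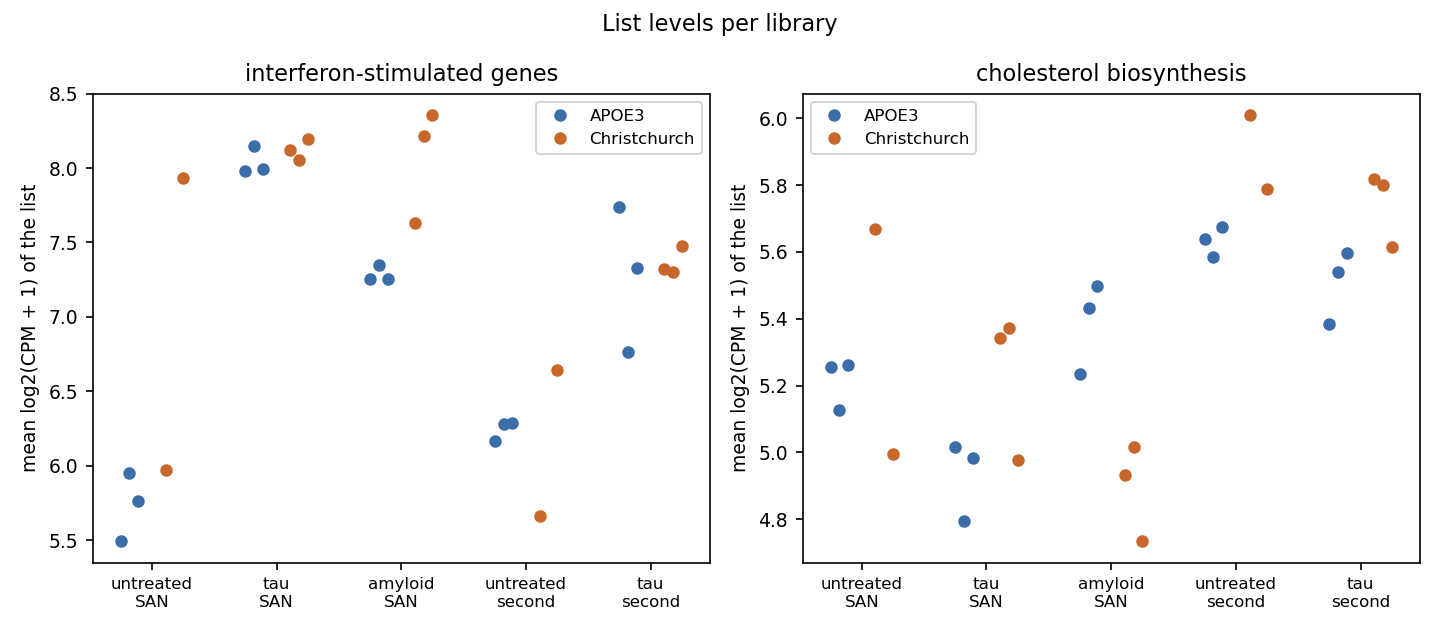
Mean log2(CPM + 1) over 54 interferon-stimulated genes (left) and 22 cholesterol genes (right) for each of the 28 libraries, by treatment, title series and genotype, 1 point per library. With tau the interferon points of the genotypes overlap, and 1 untreated Christchurch library of the SAN series reaches the level of the tau libraries, while the cholesterol points of Christchurch lie above APOE3 with tau in 5 of 6 libraries and below it with amyloid.

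Cholesterol synthesis had the largest median difference of the 21 lists that are not cell type markers. All 22 tested genes of that list had a positive sign in Christchurch microglia with tau and 19 had an unadjusted p under 0.05, against 2.26% of all genes, although edgeR called none. DESeq2 called 1 of the 22 and edgeR with no low-count filter 7. The median log2 fold change was 0.25, 0.32 in the SAN and 0.18 in the second title series, where 21 and 22 of the 22 were positive. Leaving out single libraries moved the median between 0.21 and 0.28 and the number with an unadjusted p under 0.05 between 15 and 21. The genes share a sterol-controlled programme and are not independent of each other, and the list says nothing of cholesterol itself, which was not measured.

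RefSeq windows (GRCm38.p6, 250 bases before to 50 after the start site) were found for 15 of the 22 genes. CCAAT, the letters bound by NF-Y, a partner of SREBP2, stood on either strand in 14 of the 15 (93.3%), against 41.1% of 27025 gene symbols with a window. TCACNCCAC, the classical sterol element, stood on either strand in 1 of 15 (6.67%), Hmgcs1, against 1.44%. The following stretches of 80 bases upstream of the start site are printed 5′ to 3′ on the gene's strand for 4 genes, to show the spacing of these letters, with capitals for CCAAT (or ATTGG on the other strand) and for the sterol element.
Hmgcs1 (chr13:119690158-119690237, + strand): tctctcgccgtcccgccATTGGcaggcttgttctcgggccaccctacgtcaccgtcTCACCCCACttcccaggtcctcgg
Insig1 (chr5:28071162-28071241, + strand): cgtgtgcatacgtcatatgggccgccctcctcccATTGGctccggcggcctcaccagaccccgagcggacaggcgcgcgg
Lss (chr10:76531505-76531584, + strand): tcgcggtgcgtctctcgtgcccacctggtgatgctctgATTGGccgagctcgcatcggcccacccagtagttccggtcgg
Mvd (chr8:122443424-122443503, - strand): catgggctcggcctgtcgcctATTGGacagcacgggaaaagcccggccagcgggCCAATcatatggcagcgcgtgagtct
A match in this window is a description of the letters, and binding was not measured.

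Hmgcs1, the synthase at the entry of the pathway, was at 50.1, 47.6 and 49.3 CPM against 68.1, 69.3 and 44.6 CPM in the SAN series and at 84.2, 92.5 and 91.4 against 116, 113 and 97.2 CPM in the second (0.28 ± 0.09). Lss, lanosterol synthase, differed by 0.28 ± 0.08, Idi1 by 0.35 ± 0.11, and Sqle, squalene epoxidase, by 0.35 ± 0.10. In each of these, Christchurch SAN library 6 was the lowest of its group or within the APOE3 range. Srebf2, the gene of SREBP2, differed by 0.13 ± 0.05, and Insig1, which holds SREBP2 back, by 0.18 ± 0.08. Lipid genes outside the list were also among those with the smallest p-values: Acsl3 (0.48 ± 0.11), an acyl-CoA synthetase, Fasn (0.28 ± 0.07), fatty acid synthase, and Aacs (0.24 ± 0.06), which feeds acetoacetate into sterol synthesis. LXR factors respond to sterol excess, and the list of their targets with other lipid-handling genes also holds Fasn. Its median was 0.05, with 5 of 26 higher and 1 lower at an unadjusted p under 0.05.

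**Figure D3:**
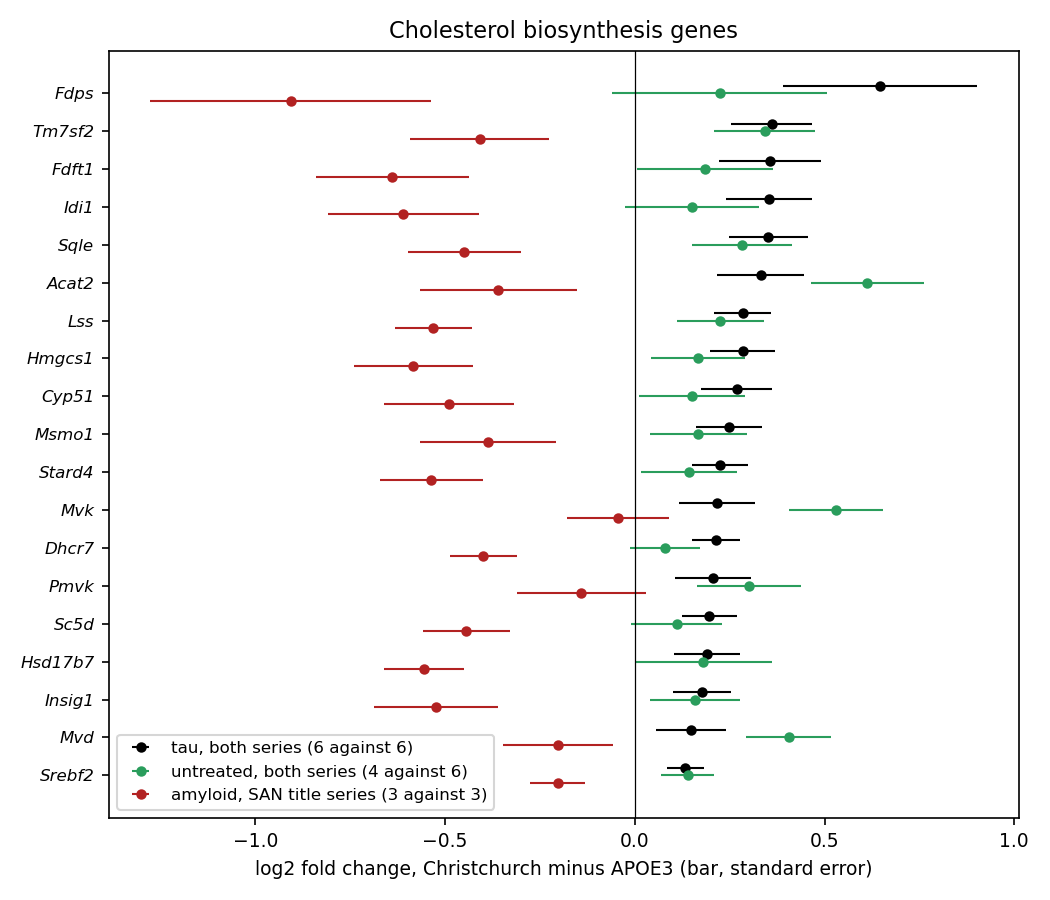
Log2 fold change of Christchurch over APOE3 with its standard error for 19 of the 22 tested cholesterol genes, with tau (black, 6 against 6 libraries), untreated (green, 4 against 6) and with amyloid (red, 3 against 3, SAN series). All 19 tau points lie above 0 and all 19 amyloid points below 0.

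In the SAN title series, the genotype difference with tau was set against that with amyloid over 13013 genes, with the same SAN tau libraries as above. Of these 38 (0.292%) were called, 9 higher and 29 lower, and 693 (5.33%) were higher and 991 (7.62%) lower at an unadjusted p under 0.05. All 22 cholesterol genes had a positive sign in this difference, 20 at an unadjusted p under 0.05, and 2 were called, Lss (0.86 ± 0.14, edgeR adjusted p = 0.0344) and Hsd17b7 (0.87 ± 0.15, adjusted p = 0.0344), an enzyme of sterol and steroid metabolism. The calls of Lss and of Hsd17b7 were lost without any 1 of 10 of the 12 libraries (adjusted p up to 0.126 and 0.129), and kept without Christchurch amyloid library 7 or 9. Fasn was called too (0.90 ± 0.16, adjusted p = 0.0389). The median was 0.77, and 0.61 without Christchurch amyloid library 9. With amyloid alone the cholesterol list's genotype difference had a median of −0.45 and no positive gene. Without any treatment its median in the SAN series was 0.17, with 19 positive and 3 negative genes, 3 higher at an unadjusted p under 0.05. Over both series the untreated median was 0.18 with 22 positive genes. All 54 interferon-stimulated genes had a negative sign in the tau-minus-amyloid difference, 48 at an unadjusted p under 0.05, 4 of them called, with a median of −0.73. With amyloid, Isg15 was at 95.5 to 109 CPM in APOE3 and at 191, 309 and 381 CPM in Christchurch libraries. Its difference in genotype effect was −1.40 ± 0.28 (adjusted p = 0.0534). Of the genes named by rule, Cyth1 (0.71 ± 0.11), a guanine exchange factor of ARF proteins, was higher, and the lectin receptor gene Clec4a3 (−0.92 ± 0.13), haptoglobin Hp (−1.09 ± 0.16) and Ms4a6b (−1.24 ± 0.19) were lower (adjusted p = 0.0344 each). The count of 38 was 504 without Christchurch amyloid library 7, 48 without Christchurch amyloid 9, 19 without APOE3 tau 4 and 3 without Christchurch tau 5, and 0 without any 1 of the 8 other libraries.

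Genes of the oxidative stress response leaned to lower values. NRF2 is the factor that turns on antioxidant and detoxifying enzymes, and of 24 tested targets 19 were negative and 10 had an unadjusted p under 0.05 in that direction, against 2.60% of all genes. None was higher at that threshold and edgeR called none, while DESeq2 called 1 of the 24, Nqo1, and edgeR with no low-count filter 4, Nqo1, Prdx1, Srxn1 and Slc7a11. The median was −0.12, −0.05 in the SAN and −0.17 in the second title series, and without APOE3 SAN library 6 the SAN value was 0.02. Nqo1 (chromosome 8, 107388225 to 107403206), a quinone reductase, was at 29.6, 29.4 and 37.8 CPM in APOE3 and 24.0, 25.6 and 25.2 CPM in Christchurch libraries of the SAN series. In the second it was at 11.7, 8.84 and 10.1 CPM against 3.78, 6.84 and 4.48 CPM. The genotypes did not overlap in either series (−0.67 ± 0.15, unadjusted p = 0.0004, edgeR adjusted p = 0.472). With amyloid Nqo1 was at 6.68, 7.17 and 6.24 CPM in APOE3 and at 6.97, 8.38 and 30.5 CPM in Christchurch libraries, so that the difference of 1.27 ± 0.42 rested on Christchurch amyloid library 9. That library also stood apart for Gsta3 (12.8 CPM, against 1.64 and 2.57 CPM in the 2 others). In raw counts it did so too for Tnf (954, against 339 and 461), Emp1 (384, against 2283 and 1302) and Kcnn4 (193, against 72 and 89). Map4k1 differed less (220, against 175 and 138). These 4 genes were looked at after the values were seen. Without treatment the NRF2 list had a median of −0.11, with 8 of 24 lower and 1 higher at an unadjusted p under 0.05. Slc7a11, the cystine transporter, differed by −0.69 ± 0.20, Txnrd1 by −0.23 ± 0.08 and catalase, Cat, by −0.22 ± 0.08. Detoxifying enzymes outside the list had some of the smallest p-values of the lower genes. Akr1b8 (chromosome 6, 34354119 to 34368463), an aldo-keto reductase, was at 19.2, 17.9 and 21.5 against 13.7, 15.3 and 16.4 CPM in the SAN series and at 13.3, 23.6 and 18.3 against 9.23, 10.8 and 9.74 CPM in the second, without overlap within a series (−0.63 ± 0.13). Gsta3 (chromosome 1, 21240589 to 21265661), a glutathione transferase, was at 12.5, 10.4 and 13.1 CPM against 4.51, 5.49 and 6.14 CPM in the SAN series, where it was called (−1.15 ± 0.17, adjusted p = 0.0319). It was at 1.73 to 4.89 against 0.526 to 1.92 CPM in the second, with overlap. Glutathione transferase genes of the alpha class resemble each other, and how reads were divided between them is not given in the sources used here. TGACNNNGC, the core of the antioxidant element, searched on both strands, stood in 7 of 20 NRF2 target windows (35.0%), against 14.0% of all symbols.

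The other genes named for the pooled comparison covered several functions, and edgeR called none of them over both series. Higher in Christchurch microglia, with every library above every APOE3 library of the same series, were Ly6a (0.50 ± 0.13), an interferon-inducible surface protein, Cd83 (0.27 ± 0.07), an activation marker, Sgce (0.40 ± 0.10) and AC149090.1 (0.28 ± 0.06). Tgfa (0.50 ± 0.12), a growth factor for the EGF receptor, and Id3 (0.31 ± 0.08), an inhibitor of helix-loop-helix factors, overlapped in the SAN series only. Lower without overlap in either series were Calcrl (−0.38 ± 0.09), a receptor for calcitonin-gene-related peptide and adrenomedullin, Ly75 (−0.37 ± 0.09), an endocytic receptor, and AI662270 (−0.40 ± 0.10). Emilin1 (−0.49 ± 0.11), a matrix protein, and Vwf (−0.33 ± 0.08), a clotting factor of endothelium, overlapped in the second series, and the phosphatase gene Acpp (−0.42 ± 0.09) and the lipid flippase gene Atp8b4 (−0.52 ± 0.12) in the SAN series. Within a single series Emilin1 was called in the SAN series (−0.78, edgeR adjusted p = 0.00774), and Acpp (−0.66, adjusted p = 0.0162) and Atp8b4 (−0.81, adjusted p = 0.0303) in the second. Adjusted p-values of these genes over both series were 0.472 to 0.574. The 11 genes that DESeq2 called over both series, 3 higher and 8 lower, included AC149090.1, Acpp and Atp8b4 beside Kcnn4, Map4k1, Gsta3, Akr1b8, Nqo1 and Dmpk.

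Among inflammatory, microglial state and APOE receptor genes edgeR called none in the pooled comparison. Of 35 inflammatory cytokine and NF-kB genes 14 were positive and 21 negative with a median of −0.03, and 1 was higher and 3 lower at an unadjusted p under 0.05. Tnf was at 52.0, 58.4 and 68.9 CPM against 45.3, 51.8 and 57.3 CPM in the SAN series and at 20.5, 15.5 and 18.0 against 13.0, 17.8 and 13.2 CPM in the second, with overlap in both (−0.26 ± 0.10, unadjusted p = 0.023, edgeR adjusted p = 0.887). Il1b, processed by inflammasomes, ranged from 188 to 353 CPM in APOE3 and 213 to 422 CPM in Christchurch libraries of the SAN series and from 19.1 to 30.2 and 14.7 to 38.4 CPM in the second (0.00 ± 0.22). Of 28 disease-associated microglia genes 15 were positive, with a median of 0.03, and Trem2, the lipid receptor that drives that state, was at 381 to 444 against 400 to 622 CPM (SAN) and 704 to 737 against 752 to 803 CPM (second), a difference of 0.17 ± 0.09 (adjusted p = 0.997). Of 29 lysosome and phagocytosis genes 22 were positive and 7 negative, 5 higher and 1 lower at an unadjusted p under 0.05, with a median of 0.07. Of 23 MHC class I genes 19 were positive and 4 negative, none at that threshold, with a median of 0.05. Of 20 homeostatic microglia genes 15 were positive and 5 negative, 2 higher and none lower at that threshold, with a median of 0.06. The median was 0.02 for 15 complement genes, 3 higher and 2 lower at that threshold, and −0.03 for 28 APOE receptor and heparan sulfate genes, 1 higher and 1 lower. With no low-count filter edgeR called 4 inflammatory, 4 complement, 2 APOE receptor and 1 each of the disease-associated, homeostatic and lysosome genes. Within a single series it called Spp1 in the SAN series (0.73 ± 0.12, edgeR adjusted p = 0.0405) and Il1rn in the second (−0.95 ± 0.08, adjusted p = 0.00192). Both were also called for the difference between the series (0.98 and 1.07, edgeR adjusted p = 0.0349 and 0.0448). Cx3cr1, of the homeostatic list, is given below.

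**Figure D4:**
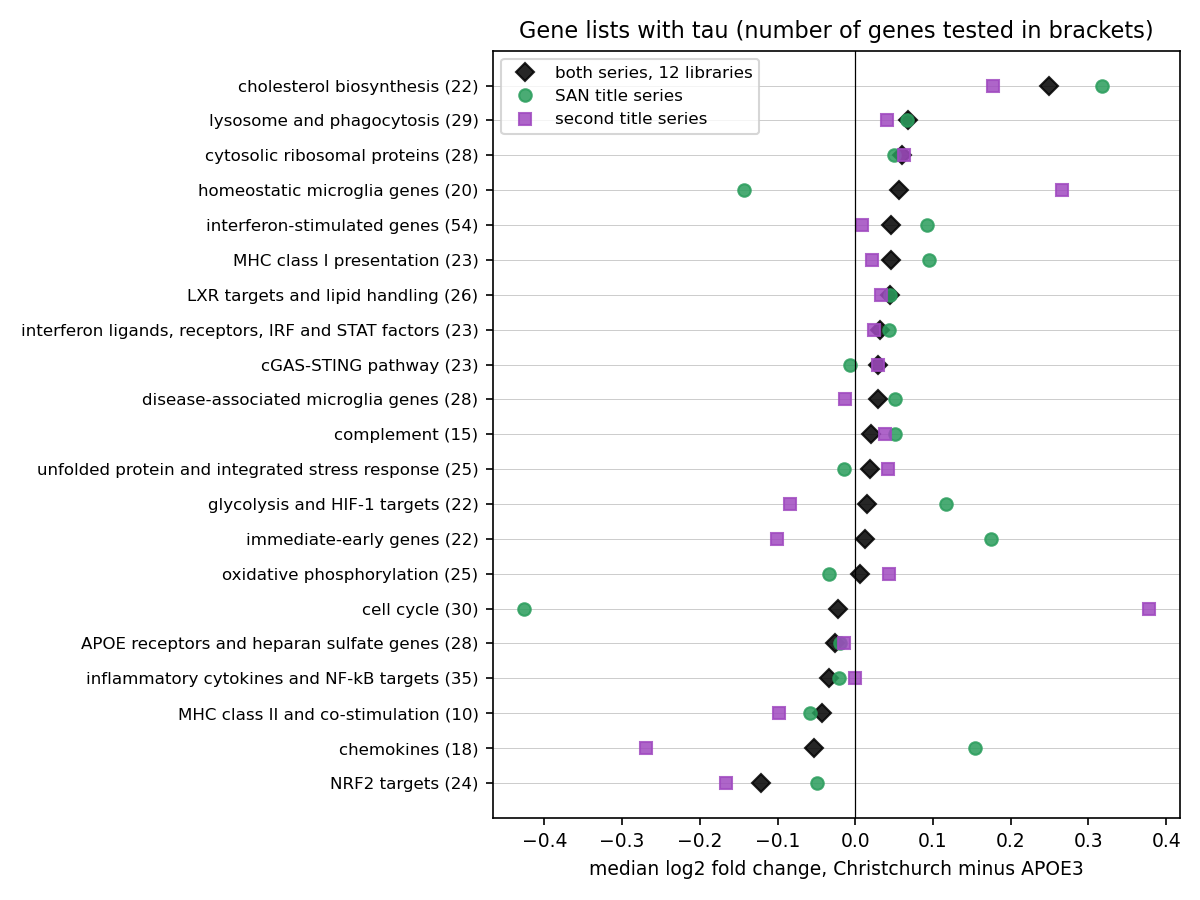
Median log2 fold change of Christchurch over APOE3 with tau for 21 gene lists, over both title series (diamonds), in the SAN series (circles) and in the second (squares). Cholesterol synthesis lies to the right and NRF2 targets to the left of 0 in both series. The cell cycle, homeostatic, chemokine, immediate-early and glycolysis lists lie on opposite sides of 0 in the 2 series, as do some lists nearer to 0.

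Beside the near-empty pooled result, some genes had a genotype difference that pointed in opposite directions in the 2 naming series. Their part in the pooled count was not tested. Within the SAN title series, 15 of 12405 genes (0.121%) were called, 10 higher and 5 lower, with 329 (2.65%) higher and 428 (3.45%) lower at an unadjusted p under 0.05. Within the second, 11 of 13094 (0.0840%) were called, 2 higher and 9 lower, with 473 (3.61%) higher and 623 (4.76%) lower. The difference between the series was called for 38 of 13207 genes (0.288%), 29 higher and 9 lower in the SAN series, with 584 (4.42%) and 542 (4.10%) at an unadjusted p under 0.05. These counts moved with single libraries. The SAN count was 1 without APOE3 library 5, 3 without APOE3 4, 5 without APOE3 6 or Christchurch 4 and 23 without Christchurch 5. The second-series count was 115 without APOE3 library 4, 32 without APOE3 5 and 2 or 3 without any 1 of the 4 others. The count for the difference was 93 without APOE3 second library 4, 59 without Christchurch SAN 4, 16 without Christchurch second 4, 10 without APOE3 second 6 and 23 without APOE3 SAN 6 or Christchurch SAN 6. In the SAN series both genotypes expressed Xist and Y-linked genes, whereas in the second the Christchurch libraries held almost no Xist, and its part in these calls was not tested.

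Immediate-early genes were among those called for the difference between the series. Fos (chromosome 12, 85473890 to 85477273), which rises within minutes of stimulation, was at 61.0, 60.9 and 66.6 CPM in APOE3 and 114, 145 and 140 CPM in Christchurch libraries of the SAN series. In the second series the order was reversed, with 99.4, 117 and 114 CPM against 82.0, 96.9 and 65.5 CPM. Neither series had overlap, and the difference between them was 1.54 ± 0.18 (edgeR adjusted p = 0.00188). Emp1 (chromosome 6, 135362545 to 135383173), a membrane protein, was at 30.7, 31.3 and 32.6 against 67.8, 60.6 and 62.6 CPM in the SAN series and at 281, 416 and 306 against 246, 243 and 227 CPM in the second (difference 1.52 ± 0.16, adjusted p = 0.000779). Arg1, arginase, was at 184, 207 and 230 CPM against 445, 392 and 468 CPM in the SAN series, where it was called (1.07 ± 0.11, adjusted p = 0.00267), and overlapped in the second. Adam8, a sheddase (0.97 ± 0.12), and Dusp1, which switches off MAP kinases (1.25 ± 0.18), were also called for the difference. Of 22 immediate-early genes 3 were called for it, Fos, Dusp1 and Zfp36, and the list median was 0.17 in the SAN series and −0.10 in the second. Vegfa, called in the SAN series, was at 13.4, 14.7 and 14.6 against 27.8, 26.3 and 27.8 CPM there and overlapped in the second. Chemokines had a median of 0.15 in the SAN series and −0.27 in the second, with none called. Glycolysis and HIF-1 targets had a median of 0.12 in the SAN series, with 21 of 22 positive. In the second their median was −0.08, with 17 of 22 negative.

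Cell-cycle and homeostatic microglia genes had signs opposite to these. In the SAN series 29 of 30 cell-cycle genes were negative in Christchurch cells, 10 at an unadjusted p under 0.05, with a median of −0.43. In the second series 28 of 30 were positive, 14 at that threshold, with a median of 0.38. The difference between the series had a median of −0.78, with 29 of 30 negative, 22 at an unadjusted p under 0.05 (4.10% of all genes) and 1 called, Nusap1. That gene of the mitotic spindle was at 6.73, 6.93 and 7.10 against 4.33, 2.89 and 2.68 CPM in the SAN series and at 4.12, 4.85 and 3.08 against 7.22, 6.03 and 5.40 CPM in the second, without overlap in either (−1.68 ± 0.29, adjusted p = 0.0182). Leaving out single libraries kept this list median between −1.03 and −0.68. Fcrls, a receptor-like gene of homeostatic microglia (chromosome 3, 87250758 to 87263738), was at 42.1, 33.8 and 36.7 against 23.0, 27.3 and 22.7 CPM in the SAN series and at 47.2, 50.8 and 39.7 against 86.4, 70.8 and 65.0 CPM in the second (−1.29 ± 0.17, adjusted p = 0.00423). P2ry12, the purinergic receptor of surveying microglia, was at 25.9, 25.1 and 26.4 against 24.2, 16.1 and 22.8 CPM and at 17.4, 19.1 and 16.7 against 27.0, 21.2 and 22.3 CPM, without overlap in either series, and the difference between the series was not called (−0.68 ± 0.18, adjusted p = 0.152). Cx3cr1, the fractalkine receptor, was called in the second series (0.93 ± 0.12, adjusted p = 0.0221), at 45.7, 46.1 and 32.9 against 85.5, 80.5 and 75.4 CPM, and overlapped in the SAN series. Over 20 homeostatic genes the median was −0.14 in the SAN series and 0.27 in the second. Alox15 (−1.98 ± 0.32), a lipoxygenase, Icosl (−1.04 ± 0.19), a co-stimulatory ligand, and Sla (−0.65 ± 0.12), an adaptor that lowers receptor signalling, were also called for the difference. That call was lost in 7 of 17 alternative fits for Icosl, 6 for Sla, 4 for Nusap1 and 2 for Alox15. For Emp1, Fos, Adam8, Arg1, Dusp1 and Fcrls it was kept in all 17. Bulk counts cannot tell fewer cells of a state from less RNA per cell.

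**Figure D5:**
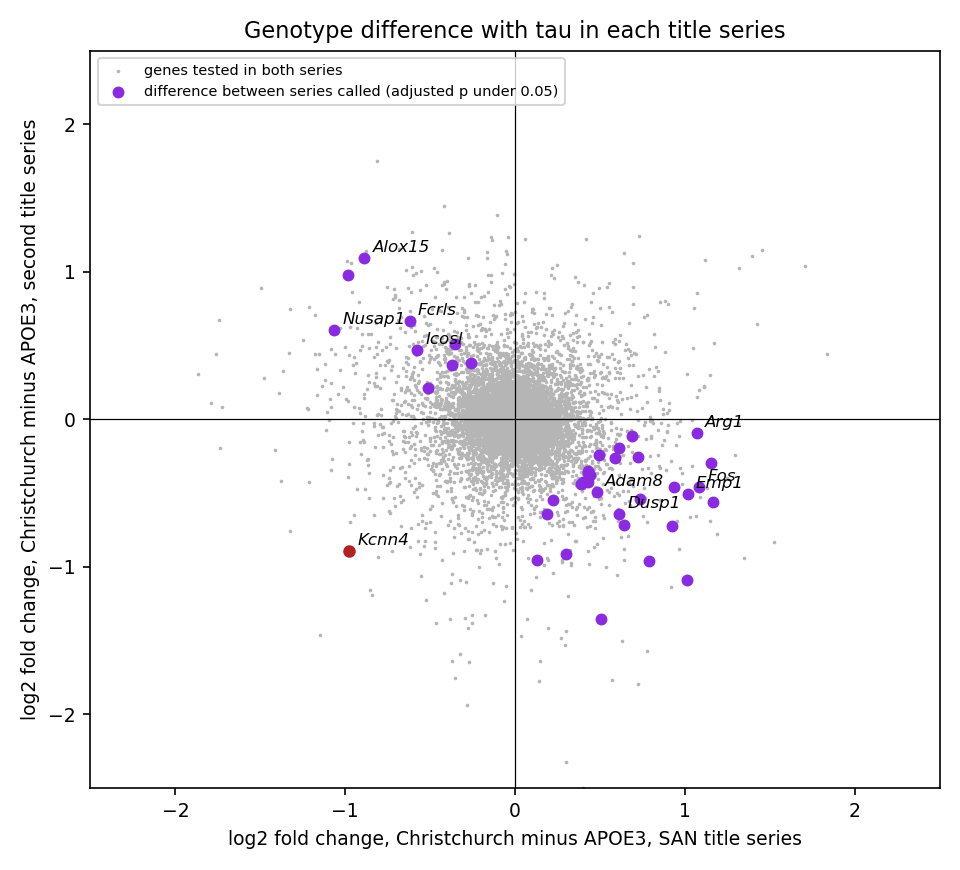
Log2 fold change of Christchurch over APOE3 with tau in the SAN title series (horizontal) and in the second (vertical) for 12190 genes tested in both, with the 38 genes called for a difference between the series in purple and Kcnn4 in red (3 genes lie beyond the axes). The purple points lie in the upper left and lower right, and Kcnn4 lies in the lower left.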

How the data were processed

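RNA from 28 samples of primary mouse microglia was made into 3′ tag libraries with a QuantSeq forward kit, per the labels' protocols. The authors deposited whole-number gene counts, not normalized, in 2 tables of 22 and 11 libraries that share 5 untreated ones. Per the submitters' processing notes the build was GRCm38 (mm10) and DESeq2 1.38.3 was used. The aligner and the counting tool are not given there. Of 60976 listed entries, 6360 held no number and 25 no name. Exact repeats (81) and further entries with a shared symbol (99) were left out, as were 3 ambiguous symbols among 24 turned into dates, which left 54424 genes.

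Genes were kept by edgeR's filterByExpr (minimum count 10) by genotype within title series, and counts were scaled by TMM. Of 1057 genes of chromosomes X and Y with a count in some library, those that passed the filter were then left out. These were 439 in the pooled tau fit. For each difference the quasi-likelihood test of edgeR 4.0.16 in R 4.3.3 was used, with p-values adjusted by Benjamini-Hochberg over all genes tested, with a call under 0.05. The pooled tau fit used 12 libraries and a term for title series, the tau-minus-untreated fit 22 libraries and 8 group means, and the tau-minus-amyloid fit 12 SAN libraries. The last shares its SAN tau libraries with the other fits. Standard errors are the log2 fold change over the root of F. CPM values are counts scaled to the total of the library and not by TMM. Coordinates came from GENCODE M21.

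Genes named by p-value averaged at least 5 CPM over the 12 tau libraries. They were the 12 smallest p-values in each direction, 5 in each for the difference between title series and 3 in each for the other differences. With no minimum CPM, the rule also named 13 genes of the pathway and of microglia. It further named 3 in each list with at least 2 called members in the pooled fit (no list had 2). In the text, genes named from within a list or from the called genes of 1 series lie outside that rule. Some genes that the rule names are not reported here. The comparison, the 27 lists and the rule were chosen with earlier results of these data known, so a list's direction is a description. Lists are summarised by counts and medians, with no set test. The scripts were tested on simulated data. Alternatives were RLE scaling, DESeq2 1.42.0, limma-voom 3.58.1, other filters, X and Y genes kept, other designs, a replicate block and leaving out each library. The 12 tau libraries differed from each other by more than sampling noise, with a mean squared difference of 7.38 to 26.7 times the counting variance within groups.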

Additional observations from a re-analysis of the deposited data

Results flagged for a closer look

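Of 232 groups of 4 to 10 libraries looked at for named genes, 8 held a library far from the others, and chance alone gives about 1 in 20 groups. In untreated Christchurch microglia, SAN library 3 held Alox15 at 124 CPM (others 26.3 to 38.2), Cxcl10 at 41.2 (1.31 to 2.55), Hp at 283 (19.0 to 45.4), Ifit1 at 312 (23.1 to 65.4), Mb21d1 at 28.4 (15.3 to 17.4) and Tnf at 25.4 CPM (11.4 to 13.3). In untreated APOE3 microglia, SAN library 3 held Ly6a at 36.5 CPM (8.71 to 14.0) and SAN library 1 held Trem2 at 1278 CPM (927 to 1035). No tau group held such a library for a named gene. The groups pooled both title series, whose levels differ, so a library apart from the others of its own series could go unflagged.

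The genotype difference with tau itself differed between the title series for 38 genes. Among named genes these were Emp1 (1.52), Fos (1.54), Adam8 (0.97), Arg1 (1.16), Dusp1 (1.25), Fcrls (−1.29), Alox15 (−1.98), Nusap1 (−1.68), Icosl (−1.04) and Sla (−0.65), as SAN minus second on the log2 scale. Against amyloid it differed for 38 genes, among them Fasn (0.90), Lss (0.86), Hsd17b7 (0.87), Cyth1 (0.71), Clec4a3 (−0.92), Hp (−1.09) and Ms4a6b (−1.24), as tau minus amyloid.

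When X and Y genes were kept, 7 of 435 were called in the second title series, Xist, Ddx3y, Eif2s3x, Eif2s3y, Kdm5d, Uty and Gm47283, and 3 of 408 in the SAN series.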

How the results depend on the processing

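Every headline count moved under some alternative. With no low-count filter the calls were 155 (pooled tau), 176 (SAN), 376 (second), 342 (difference between series), 193 (tau minus untreated) and 715 (tau minus amyloid); of the 155, 154 had been tested in the filtered fit. DESeq2 gave 11, 64, 158, 177 and 348 for the same comparisons without tau minus untreated, and limma-voom 24 for tau minus amyloid. With X and Y genes kept the pooled count was 3 and the second-series count 23. The pooled count was 0 with no title-series term, with 22 libraries fitted together, with a filter at 10 CPM and with the replicate block. Leaving out single libraries gave 0 to 3 (pooled), 1 to 23 (SAN), 2 to 115 (second), 10 to 93 (difference between series), 0 to 14 (tau minus untreated) and 0 to 504 (tau minus amyloid). The cause of these shifts was not tested.

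Of named genes, 6 changed sign under some alternative. Their pooled log2 difference was near 0 except for Ifnb1 (0.23), which had few counts. For Il1b the log2 difference of −0.00 became 0.00017 with no low-count filter, 0.0435 with no title-series term and 0.00858 with 22 libraries, and −0.193 to 0.116 as single libraries were left out. The left-out ranges were −0.0778 to 0.0486 for Mb21d1, −0.0995 to 0.969 for Ifnb1, −0.0653 to 0.272 for Isg15, −0.0900 to 0.217 for Ifit1 and −0.0264 to 0.157 for P2ry12.

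Same-numbered libraries correlated at −0.083 to 0.189 in their deviations, and differently numbered ones at −0.253 to 0.142. So few values cannot show whether the replicate numbers pair the libraries. As a paired analysis, the replicate block gave 0 calls pooled, 8 in the SAN and 17 in the second series. Leaving out libraries for the gene lists, and leaving out untreated or amyloid libraries, were chosen after seeing the data.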
